A study of Homo sapiens with 12 samples.

Results

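The 38 genes described here belong to the interferon response. They were taken from a list of gene symbols, drawn up with earlier results of these data known but with no threshold on a measured value, and they fall into 26 effectors, 8 RNA sensors and 4 transcription factors of the STAT and IRF families. The list holds 39 symbols, since DDX58 and RIGI are the old and the new name of the same gene. All 38 genes had a row among the 60660 gene identifiers of the deposited table, and 37 of them were among the 14858 genes with enough reads to be tested. The exception was RSAD2, which encodes the antiviral enzyme viperin and stood at an estimated 2.22 to 33.1 normalised counts over all libraries.

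Messenger RNA was sequenced from dH1f cells, which are human fibroblasts differentiated from H1 embryonic stem cells. The cells carried either a non-targeting guide (NT, genotype given as wild type) or a guide against MRG15 delivered with lentiCRISPRv2 (KO), and both kinds were sampled ahead of OSKM, called day 0, and on day 6 of reprogramming with OSKM. OSKM stands for the reprogramming factors OCT4, SOX2, KLF4 and MYC. Each of the 4 groups held 3 libraries, and their origin (distinct cultures or repeat preparations of the same cells) is not given, so the p-values reflect library-to-library spread that may be technical. All KO libraries carried the same code in the labels, with no other guide and no rescue, and whether the cells were a pool or a clone is not given. Without a day 6 culture that lacked OSKM, time in culture cannot be told apart from OSKM. No library was treated with interferon per the labels.

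Levels below are normalised read counts estimated from the deposited values, which are on the log2 scale of the variance-stabilising transformation (VST) of DESeq2. They are not divided by transcript length, so they compare libraries and not genes. A difference is that of mean VST values between groups, with its standard error (SE), and understates the log2 fold of genes with few reads. A fold is the ratio of mean estimated counts. A gene was called higher or lower at a Benjamini-Hochberg adjusted p under 0.05 in limma, two-sided and adjusted over all 14858 genes. In bulk RNA, fewer cells that express a gene and less RNA per cell cannot be told apart.

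Interferons are secreted proteins that cells release when sensors in the cytosol, such as RIG-I and MDA5, bind double-stranded or otherwise foreign RNA. Type I interferons signal through the receptor subunits IFNAR1 and IFNAR2 and the kinases JAK1 and TYK2 to a complex that includes STAT2 and IRF9 and binds the interferon-stimulated response element in the promoters of target genes. The targets include antiviral effectors and also the sensors and factors themselves, so that the pathway raises its own components, and fibroblasts express many of these genes at a low level without infection.

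Promoter stretches of 5 effectors whose values are given below are shown because they carry the core of that response element. They come from RefSeq on GRCh38.p14, are written 5′ to 3′ on the strand of the gene, and have the matches to GAAANNGAA, on either strand, in capitals. The stretches lie at chr14:94110614-94110664 (IFI27, plus strand), chr1:27672262-27672363 (IFI6, minus strand), chr21:41420554-41420587 (MX1, plus strand), chr1:1013369-1013419 (ISG15, plus strand) and chr10:89392493-89392544 (IFIT1, plus strand).
IFI27: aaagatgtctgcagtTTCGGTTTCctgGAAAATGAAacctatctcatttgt
IFI6: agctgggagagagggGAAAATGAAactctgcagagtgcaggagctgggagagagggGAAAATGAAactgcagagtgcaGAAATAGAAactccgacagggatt
MX1: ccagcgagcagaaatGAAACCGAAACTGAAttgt
ISG15: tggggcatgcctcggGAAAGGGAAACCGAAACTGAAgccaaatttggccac
IFIT1: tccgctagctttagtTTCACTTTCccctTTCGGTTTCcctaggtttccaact

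The IFI27 and IFIT1 stretches hold 2 matches each, and those of IFI27 are on opposite strands. The IFI6 stretch holds 3 separate matches, 2 of them inside a repeated segment, and the 3 matches of ISG15 overlap each other. In MX1 the 2 overlapping matches begin 11 bases past the annotated start of the first of its 3 windows. Of the 38 genes, 31 had a RefSeq window of 250 bases before to 50 bases after an annotated start (43 windows), the others being IFIT2, IFITM2, MX2, USP18, OAS2, OASL and IRF7. The core GAAANNGAA was found on either strand in 22 of these 31 genes (71.0%), against 9.86% of the 27305 genes in the table. The gamma-activated site TTCNNNGAA, an element of interferon gamma targets, was found in 10 of 31 genes (32.3%), against 9.38% of all. The 2 patterns can share bases, as they do in IFI27. By class, the core was in 19 of 22 effectors, in 3 of 6 sensors (OAS3, IFIH1 and DDX60) and in 0 of 3 factors. A match describes the letters in these windows and is not shown to be a bound site.

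**Figure D1:**
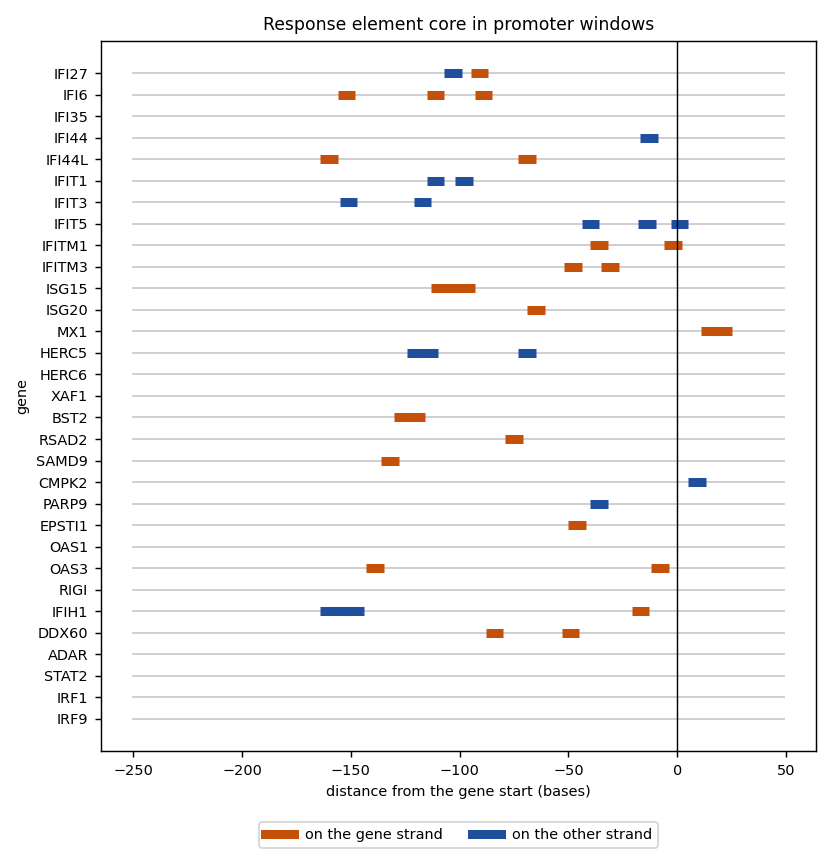
Positions of the core GAAANNGAA in the promoter windows of the 31 genes with a RefSeq window, against distance in bases from the annotated start (vertical line). Each gray line is 1 window of 1 gene (the first that holds a match, where any does), and each bar is a match on the gene's strand (orange) or on the other strand (blue). Matches are seen in 22 genes, and IFI35, HERC6, XAF1, OAS1, RIGI, ADAR, STAT2, IRF1 and IRF9 show none.

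Estimated depth was 17.8 to 22.2 M reads per library. MORF4L1, the gene of MRG15, stood at 7682 to 7863 and 1292 to 1421 in NT and KO libraries of day 0 and at 6709 to 7116 and 961 to 1059 on day 6, so every KO library lay below every NT library. Within NT cells of day 0, replicate 2 was the lowest of its group for 29 of the 37 interferon genes (78.4%, against 32.3% of all genes tested). KO replicate 2 of day 0 was the lowest for 25 (67.6%, against 31.6%). On day 6, NT replicate 3 was the lowest of its group for 26 (70.3%, against 35.8%). NT replicate 2 of day 6 was the highest for 32, and the share of all genes for the highest library was not determined. The median SD between libraries over the 37 genes on day 0 was 0.23 (NT) and 0.16 (KO), and on day 6 it was 0.13 (NT) and 0.097 (KO), where that over all genes was 0.090 to 0.10. The 10 fibroblast markers summed to 1174507 to 1253923 normalised counts in NT and 866711 to 877350 in KO libraries of day 0. On that day 5 of the 10 were called lower and 2 higher in KO cells, where 10.7% and 7.42% of all genes tested were. On day 6 the fibroblast markers summed to 572284 to 607403 in NT and 201112 to 214640 in KO libraries. The collagen genes COL1A1, COL1A2 and COL3A1 made up most of each sum. DCN, LUM and VIM were higher in every KO than in every NT library of day 0. The 11 leukocyte markers summed to 352.5 to 412 in NT and 476 to 501 in KO libraries of day 0, with no overlap, and to 145.6 to 179 and 149.8 to 234 on day 6. CD68, which is not confined to leukocytes, made up 331 to 475 of those counts in every library of day 0 and 53.8 to 125 on day 6, while CD3E, AIF1, TYROBP and CLEC4C stayed under 4 in every library.

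Before OSKM, most of these 37 interferon genes were lower in KO than in NT cells. On day 6 most were not called, and of the calls most were higher. On day 0, 21 of the 37 genes tested were lower and 1 was higher, with a median difference of -0.51, where 10.7% of all genes tested were called lower, 7.42% were called higher and the median was -0.0043. On day 6, 10 were higher, 2 were lower and 25 were not called, where 17.7% of all genes were higher and 19.2% were lower. The median of the 37 genes was -0.0047, with 18 differences above 0 and 19 below. The change in the KO effect from day 0 to day 6, tested as an interaction, was upward in 18 genes and downward in 0, where 9.07% of all genes went up and 11.2% went down. At an unadjusted p under 0.05 in limma, 23 went up and 1 (IFITM2) went down (16.3% and 16.9% of all genes), and IFITM2 was called downward with the replicate number as a block (adjusted p = 0.049), after quantile normalisation (0.0317) and without KO replicate 3 of day 0 (0.0394). Between the days, 20 genes rose and 7 fell in NT cells (33.6% and 33.1% of all genes) and 26 rose and 5 fell in KO cells (37.6% and 36.2% of all genes). The 2 genes lower on day 6 became 4 without KO replicate 2 of day 6 and 1 without KO replicate 3. Without NT replicate 2 of day 0, the counts on day 0 were 25 lower and 1 higher, and those of the interaction 21 and 0. A wider list of 44 other interferon-induced genes, described below, had 15 lower and 6 higher in KO cells on day 6.

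**Figure D2:**
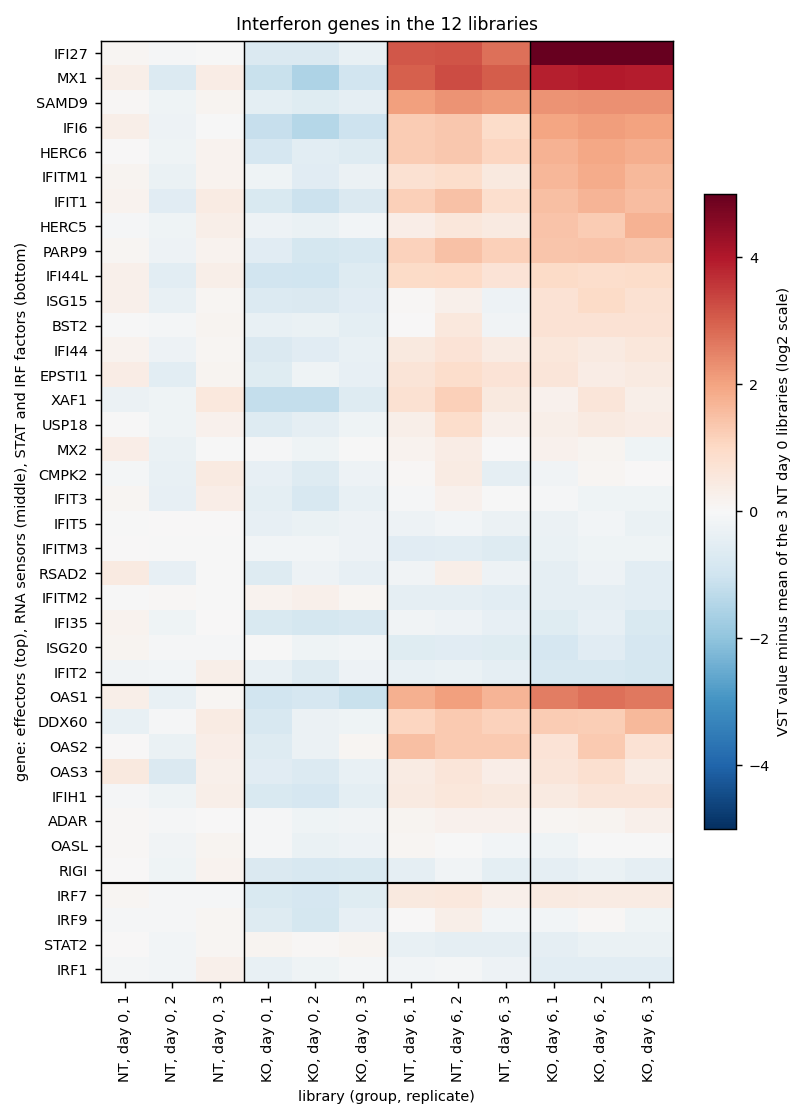
VST value minus the mean of the 3 NT libraries of day 0 (color, log2 scale) for the 38 genes (rows, effectors on top, RNA sensors in the middle, factors at the bottom) in the 12 libraries (columns, by group and replicate). Most genes are blue in the 3 KO libraries of day 0, and IFI27, MX1, SAMD9, IFI6 and OAS1 are red on day 6, IFI27 and MX1 most deeply in KO cells.

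IFI27 had the highest difference of any effector on day 6. It encodes a small interferon-induced protein of mitochondrial membranes. IFI27 stood at 65.1, 56.4 and 57.0 in the 3 NT libraries of day 0 and at 21.0, 20.6 and 35.8 in the 3 KO libraries. On day 6 it stood at 876, 924 and 675 in NT and at 3898, 3826 and 3538 in KO libraries. KO libraries lay below NT libraries on day 0 and above them on day 6, with no overlap on either day. On day 0 KO cells had 2.30-fold less (difference -0.62, SE 0.12, adjusted p = 0.00202), and on day 6 they had 4.55-fold more (difference 2.12, SE 0.12, adjusted p = 3.44e-09). From day 0 to day 6 it rose 13.9-fold in NT and 145-fold in KO cells. The difference between the KO effects, the interaction, was 2.74 (SE 0.16, adjusted p = 4.93e-08).

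IFI6, a related interferon-induced protein of mitochondria and the endoplasmic reticulum, had the lowest difference of any effector on day 0. Before OSKM, NT libraries held 1102, 747 and 873 normalised counts of IFI6 and KO libraries 368, 296 and 406. The values of day 6 were 2221, 2344 and 1746 in NT and 3715, 3982 and 3735 in KO libraries. The groups were apart on both days, in opposite order. KO cells had 2.54-fold less on day 0, and on day 6 they had 1.81-fold more (difference 0.85, SE 0.13, adjusted p = 1.48e-04). It rose 2.32-fold between the days in NT cells and 10.7-fold in KO cells, and the interaction was 2.07 (SE 0.19, adjusted p = 2.94e-06).

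MX1, a dynamin-like GTPase that blocks the replication of RNA viruses, had the highest difference of any effector between the days in NT cells. For MX1, the day 0 values were 563, 254 and 598 in NT and 179, 117 and 205 in KO cells. By day 6, NT libraries held 3864, 4754 and 3969.6 and KO libraries 7305, 7697 and 7443. NT replicate 2 was low on day 0 and still lay above every KO library, while on day 6 every KO library exceeded every NT library. KO cells had 2.82-fold less on day 0 and 1.78-fold more on day 6 (difference 0.83, SE 0.22, adjusted p = 0.00804). Between the days MX1 rose 8.90-fold in NT and 44.8-fold in KO cells, with an interaction of 2.03 (SE 0.31, adjusted p = 3.36e-04). Its neighbour MX2 was not called in any of the 5 comparisons, at 7.49 to 31.1 normalised counts over all libraries.

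ISG15 encodes a ubiquitin-like protein that is attached to other proteins during the interferon response. On day 0 the ISG15 values were 1239, 783 and 1089.7 in NT and 614, 597 and 677 in KO libraries. NT libraries of day 6 held 1064, 1221 and 851, and KO libraries 1729, 2021 and 1784. On day 0 every NT library lay above every KO library, and on day 6 below. The difference was -0.65 on day 0 (SE 0.14, adjusted p = 0.00486) and 0.80 on day 6 (SE 0.14, adjusted p = 4.40e-04). Between the days it was not called in NT cells, with a difference of 0.019 (95% interval -0.28 to 0.32), and rose 2.93-fold in KO cells, with a called interaction (1.45). Of its conjugation and removal enzymes, the ligase HERC5 was 3.13-fold higher in KO cells on day 6 (1.03, SE 0.15, adjusted p = 7.29e-05) and not called on day 0. HERC6, its neighbour on chromosome 4, was lower on day 0 (-0.67) and higher on day 6 (0.58). USP18, the protease that removes ISG15, was called on neither day (-0.43 and -0.12), although without NT replicate 2 of day 6 it was called lower on day 0 (adjusted p = 0.0445). The conjugation enzymes UBA7 and UBE2L6, of a wider list, did not rise with HERC5 on day 6. UBA7 stood at 722, 566 and 644 in NT and 544, 470 and 457 in KO libraries of day 0. On day 6 it stood at 206, 170 and 194 in NT and 98.7, 115 and 81.5 in KO libraries. UBE2L6 stood at 278, 258 and 229 in NT and 250, 250 and 206 in KO libraries of day 6.

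The IFIT proteins bind foreign RNA and block its translation, and their 4 genes lie together on chromosome 10. IFIT1 stood at 367, 192 and 429 in the 3 NT libraries of day 0 and at 166, 121 and 172 in the 3 KO libraries. On day 6 it stood at 782, 966 and 606 in NT and at 989, 1151 and 1007 in KO libraries. IFIT1 was lower in KO cells on day 0 without overlap (-0.85, SE 0.21, adjusted p = 0.0108, and adjusted p = 0.05 in a fit of the 2 groups alone). On day 6 its KO libraries also lay above all NT libraries, but the difference was not called (0.41, SE 0.21, adjusted p = 0.134), except without NT replicate 2 of day 0 (adjusted p = 0.034) and in the fit of 2 groups (adjusted p = 0.0299).

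IFIT2, the gene next to IFIT3, was the only gene of the 37 called lower in KO cells on both days. Before OSKM, NT libraries held 259.5, 263 and 379 normalised counts of IFIT2 and KO libraries 215, 174 and 238. The values of day 6 were 217, 222 and 199.7 in NT and 149, 150.2 and 137 in KO libraries. The groups did not overlap on either day, and the difference was -0.42 on day 0 (SE 0.13, adjusted p = 0.0297) and -0.42 on day 6 (SE 0.13, adjusted p = 0.0158). The call of day 0 was lost without NT replicate 3 (adjusted p = 0.121), KO replicate 1 (0.06) or KO replicate 2 (0.124), with no filter (0.0523) and in the fit of 2 groups (0.104), and that of day 6 without KO replicate 3 (0.0524). Its interaction was 0.00070, with a 95% interval of -0.38 to 0.38. IFIT3 was lower on day 0 (-0.55, SE 0.15, adjusted p = 0.0226) with groups that overlapped, and the call was lost without NT replicate 1 (adjusted p = 0.0747), NT replicate 3 (0.0949) or KO replicate 2 (0.0974) and in the fit of 2 groups (0.0897). IFIT5 was lower on day 0 (-0.34, SE 0.080, adjusted p = 0.00885) and close to NT cells on day 6 (-0.024, 95% interval -0.20 to 0.15).

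The IFITM proteins sit in membranes and hinder the fusion of viruses with the cell, and their genes are neighbours on chromosome 11. They are similar in sequence, and in GENCODE IFITM1 and IFITM2 overlap, so reads can be split between them and their values are uncertain. For IFITM3, the day 0 values were 6965, 6880.2 and 6879 in NT and 6255, 6236 and 5851 in KO cells. By day 6, NT libraries held 4628, 4815 and 4451 and KO libraries 5526, 5868 and 5866. IFITM3 was lower on day 0 (-0.18, SE 0.043, adjusted p = 0.0119) and higher on day 6 (0.31, SE 0.043, adjusted p = 6.49e-05), with no overlap on either day. The day 0 call was lost without KO replicate 3 (adjusted p = 0.0614), after quantile normalisation (0.172) and without the trend of the variance (0.0522). In KO cells it was not called between the days (-0.087), but it was called lower on day 6 without KO replicate 3 of day 0 (-0.12, adjusted p = 0.0386), and quantile normalisation turned it to a called rise of 0.13.

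IFITM2 was the only gene of the 37 called higher in KO cells on day 0. On day 0 the IFITM2 values were 2444, 2573 and 2467 in NT and 2853, 2952 and 2658 in KO libraries. NT libraries of day 6 held 1809, 1830.0 and 1734, and KO libraries 1797, 1798 and 1714. The groups were apart on day 0 and overlapped on day 6. Its difference of day 0 was small (0.17, SE 0.050, adjusted p = 0.0268), and the call was lost without NT replicate 1 (adjusted p = 0.0817), NT replicate 3 (0.0677), KO replicate 1 (0.0851) or KO replicate 2 (0.113). It was also lost with no filter (0.0909), without the trend of the variance (0.0625) and in the fit of 2 groups (0.0622). IFITM2 fell between the days in both genotypes (-0.47 in NT and -0.65 in KO cells). IFITM1 was 2.07-fold higher in KO cells on day 6 (1.02, SE 0.14, adjusted p = 4.75e-05) and not called on day 0 (-0.35), where without NT replicate 2 it was called lower (-0.52, adjusted p = 0.0115).

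ISG20, a 3′ to 5′ exonuclease that degrades RNA, had the lowest difference of any effector between the days in NT cells. ISG20 stood at 51.4, 41.9 and 39.9 in the 3 NT libraries of day 0 and at 43.9, 32.1 and 37.6 in the 3 KO libraries. On day 6 it stood at 16.9, 17.7 and 17.4 in NT and at 10.7, 17.8 and 10.6 in KO libraries. It fell in both genotypes (-0.60 in NT and -0.62 in KO cells, adjusted p = 2.82e-04 and 1.50e-04) and was called between KO and NT on neither day, with groups that overlapped. ISG20 lies on chromosome 15 with MORF4L1. The more highly expressed genes tested there, 317 in number, had median KO differences of -0.18 on day 0 and -0.11 on day 6. That set leaves out ISG20, whose mean VST of 6.175 was below its cut, and other chromosomes were not summarised in this way.

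**Figure D3:**
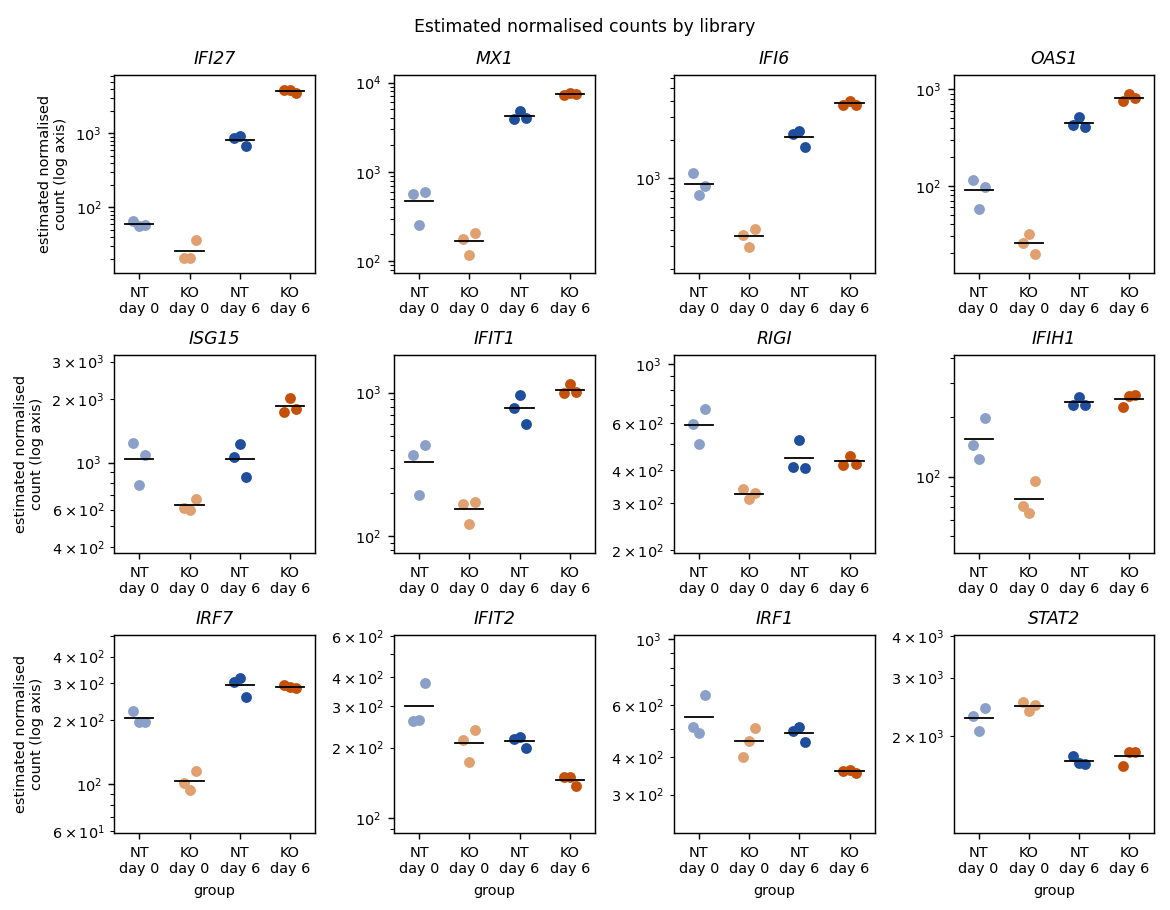
Estimated normalised counts (log axis, a separate scale in each panel) of 12 interferon genes in the 12 libraries, by group, with the group mean as a line. IFI27, MX1, IFI6, OAS1 and ISG15 are lowest in KO cells on day 0 and highest in KO cells on day 6, whereas IFIT2 and IRF1 are lowest in KO cells on day 6.

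Outside the IFIT family, a further 6 effectors were lower in KO cells on day 0 and not called on day 6. These were XAF1, a pro-apoptotic zinc finger protein (-1.01), IFI44L (-0.87), IFI35 (-0.81), PARP9, an ADP-ribosyltransferase partner (-0.74), IFI44 (-0.56) and SAMD9, a restriction factor of poxviruses (-0.51). Adjusted p for these ran from 3.28e-04 (IFI35) to 0.00648 (XAF1). IFI35 was near the threshold on day 6 (-0.32, adjusted p = 0.0508) and was called lower there without NT replicate 1 (0.0408) or 2 (0.0324) of day 0, NT replicate 3 (0.0386) or KO replicate 2 (0.0258) of day 6. XAF1 had the largest fold of them, with NT libraries at 58.1, 62.3 and 135 and KO libraries at 14.8, 14.2 and 36.6. BST2, which encodes tetherin, a protein that holds budding viruses at the cell surface, stood at 33.1, 62.9 and 23.6 in NT and 77.9, 79.0 and 80.9 in KO libraries of day 6, with KO cells higher (0.61, SE 0.15, adjusted p = 0.00535). On day 0 its KO libraries lay below all NT libraries without a call (-0.41, adjusted p = 0.0768), and it was called lower there without NT replicate 2 (0.0218) or 3 (0.047) of day 6. CMPK2 and EPSTI1 were called on neither day, with differences of -0.43 and -0.41 on day 0. EPSTI1 was called lower on day 0 without NT replicate 2 (-0.67, adjusted p = 0.00379). CMPK2 overlaps RSAD2 on the other strand, and whether the counting used the strand is not given. In all, 16 of 25 effectors were lower and 1 was higher on day 0, where 10.7% and 7.42% of all genes tested were. On day 6, 9 effectors were higher and 1 was lower, where 17.7% and 19.2% of all genes were.

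OAS1 was the sensor with the widest differences in all 5 comparisons. It encodes an enzyme that makes 2′-5′ oligoadenylates when it binds double-stranded RNA, which activate the nuclease RNase L. Before OSKM, NT libraries held 116, 57.1 and 98.1 normalised counts of OAS1 and KO libraries 25.8, 31.7 and 19.8. The values of day 6 were 429, 519 and 403 in NT and 756, 891 and 821 in KO libraries. Every KO library was below every NT library on day 0 and above on day 6. KO cells had 3.51-fold less on day 0 and 1.83-fold more on day 6 (difference 0.80, SE 0.15, adjusted p = 6.96e-04). OAS1 rose 4.98-fold between the days in NT and 32.0-fold in KO cells, with an interaction of 1.76 (SE 0.21, adjusted p = 3.80e-05).

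OAS3 and OAS2 follow OAS1 on chromosome 12 and encode larger enzymes of the same kind. For OAS3, the day 0 values were 631, 238 and 519.6 in NT and 279, 252 and 318 in KO cells. By day 6, NT libraries held 588, 688 and 559.9 and KO libraries 687, 789 and 593. NT replicate 2 of day 0 lay below all 3 KO libraries, and OAS3 was called on neither day (-0.53, adjusted p = 0.117, on day 0). Without that library the day 0 difference was -0.90 (adjusted p = 3.76e-04) and the interaction 1.06 (adjusted p = 7.95e-04), both called. OAS2 was lower in every KO than in every NT library on day 6 (79.2, 148 and 84.3 against 180.1, 149 and 151), a difference that did not pass the test (-0.48, SE 0.21, adjusted p = 0.0862) but did so without KO replicate 2 (adjusted p = 0.0243). OASL, a relative that makes no oligoadenylates, was called in no comparison and stood at 11.4 to 26.5.

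RIGI encodes RIG-I, a helicase that senses RNA with a 5′ triphosphate. On day 0 the RIGI values were 596, 502 and 678 in NT and 339, 311 and 328 in KO libraries. NT libraries of day 6 held 410.2, 516 and 408, and KO libraries 419, 453 and 420.2. It was lower in KO cells on day 0 without overlap (-0.76, SE 0.10, adjusted p = 1.54e-04), and on day 6 the groups overlapped, with a difference of -0.036 (95% interval -0.26 to 0.19). RIGI was the only gene of the 37 called in opposite directions between the days, lower on day 6 in NT cells (-0.37, SE 0.10, adjusted p = 0.00536) and higher in KO cells (0.35, SE 0.10, adjusted p = 0.00674), and the interaction was 0.72 (SE 0.15, adjusted p = 0.00289).

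IFIH1 encodes MDA5, the helicase that senses long double-stranded RNA. IFIH1 stood at 144, 122 and 197 in the 3 NT libraries of day 0 and at 71.1, 65.3 and 94.7 in the 3 KO libraries. On day 6 it stood at 229.8, 253 and 232 in NT and at 224, 258 and 259.8 in KO libraries. The groups were apart on day 0, when KO cells were 2.01-fold lower (-0.69, SE 0.13, adjusted p = 0.00198), and overlapped on day 6 (0.043, 95% interval -0.23 to 0.32). Unlike RIGI it was called higher on day 6 in both genotypes (0.51 in NT and 1.24 in KO cells), and its interaction was 0.73 (SE 0.18, adjusted p = 0.011).

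ADAR edits adenosines in double-stranded RNA and so hides the cell's own RNA from MDA5. Before OSKM, NT libraries held 5520.1, 5018 and 5339.8 normalised counts of ADAR and KO libraries 5023, 4522 and 4708. The values of day 6 were 5829, 6141 and 6142 in NT and 5668, 5877 and 6245 in KO libraries. Its groups overlapped on both days. The day 0 difference was just outside the call (-0.15, SE 0.052, adjusted p = 0.0545), and it was called without NT replicate 2 (adjusted p = 0.0336) or KO replicate 1 (0.0357). ADAR rose between the days by 0.19 in NT and 0.32 in KO cells, the smallest called rise of a sensor in each. DDX60, a helicase that aids RIG-I, was called on neither day (-0.44 and 0.19), although without NT replicate 1 of day 0 both its day 0 difference (-0.62, adjusted p = 0.0331) and its interaction (0.81, adjusted p = 0.032) were called. Of the 8 sensors, 3 were lower and 0 higher on day 0 (6 and 0 at an unadjusted p under 0.05). On day 6, 1 was higher and 0 lower (1 and 1 unadjusted). The shares over all genes tested were 10.7% lower and 7.42% higher on day 0 (17.2% and 13.6% unadjusted). On day 6 they were 19.2% lower and 17.7% higher, so the 12.5% of sensors called higher was below that of all genes.

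Of the 4 factors, IRF7 and IRF9 were lower in KO cells on day 0, and IRF1 on day 6. IRF7 drives the interferon genes themselves once sensors are active. For IRF7, the day 0 values were 221, 196 and 196 in NT and 101, 93.8 and 116 in KO cells. By day 6, NT libraries held 304, 317 and 258 and KO libraries 294, 287 and 286. The groups were apart on day 0, with KO cells lower (-0.73, SE 0.093, adjusted p = 8.23e-05), and overlapped on day 6 (-0.013, 95% interval -0.21 to 0.19). Its rise between the days was 0.42 in NT and 1.14 in KO cells, and it was the only factor with a called interaction (0.72, SE 0.13, adjusted p = 0.00143).

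IRF9 is the DNA-binding subunit of the complex that reads the response element. On day 0 the IRF9 values were 641, 640.1 and 717 in NT and 411, 341 and 492 in KO libraries. NT libraries of day 6 held 666, 820.2 and 599.9, and KO libraries 593, 686 and 565. KO libraries were below NT libraries on day 0 (-0.63, SE 0.12, adjusted p = 0.00243) and overlapped them on day 6. Its interaction was 0.47 (adjusted p = 0.0673) and was called without KO replicate 3 of day 0 (adjusted p = 0.0248) or NT replicate 2 of day 6 (0.0235). STAT2, which carries the activating domain of that complex, was called between KO and NT on neither day. STAT2 stood at 2300.2, 2072 and 2427 in the 3 NT libraries of day 0 and at 2524, 2381 and 2479 in the 3 KO libraries. On day 6 it stood at 1736, 1651 and 1646 in NT and at 1623, 1787 and 1786 in KO libraries. The groups of STAT2 overlapped on both days (0.12 on day 0 and 0.044 on day 6), and it fell between the days in both genotypes (-0.42 and -0.49).

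IRF1 is induced mainly by interferon gamma and inflammatory signals and acts on genes that include those of antigen presentation. Before OSKM, NT libraries held 506, 485 and 648 normalised counts of IRF1 and KO libraries 401, 456 and 503. The values of day 6 were 491, 505 and 451 in NT and 359, 364 and 355 in KO libraries. The groups overlapped on day 0, and on day 6 every KO library lay below every NT library (-0.38, SE 0.10, adjusted p = 0.00866), although the interaction was not called (-0.14, adjusted p = 0.535). IRF1 fell between the days in KO cells (-0.29, SE 0.10, adjusted p = 0.0166), a call lost without KO replicate 3 of day 0 (adjusted p = 0.0819).

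Set side by side, the KO effects of the 2 days fell into a few patterns. The share of all genes tested with each joint pattern was not determined, so those counts describe these interferon genes alone. Lower on day 0 and higher on day 6 were 7 genes, namely IFI27, IFI6, IFITM3, ISG15, MX1, HERC6 and OAS1. Lower on day 0 and not called on day 6 were 13, including the sensors RIGI and IFIH1 and the factors IRF7 and IRF9. IFITM1, HERC5 and BST2 were not called on day 0 and higher on day 6, each with a called interaction, and 11 genes were called on neither day. Leaving calls aside, the difference was below 0 on day 0 and above 0 on day 6 in 17 genes, 13 effectors and 4 sensors. The interaction was called upward in 9.07% and downward in 11.2% of all genes tested. Among the interferon genes it was called in 14 of 25 effectors, 3 of 8 sensors and 1 of 4 factors. In each of these 18 the KO effect was higher on day 6. IFI44 (0.56, SE 0.17, adjusted p = 0.0351) and IFI44L (0.91, SE 0.25, adjusted p = 0.0202) were the calls nearest to the threshold. That of IFI44 was lost without any 1 of 8 libraries (adjusted p up to 0.0857) or with no filter (0.0699), and that of IFI44L without NT replicate 1 of day 0 (0.0509) or NT replicate 3 of day 6 (0.0547).

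**Figure D4:**
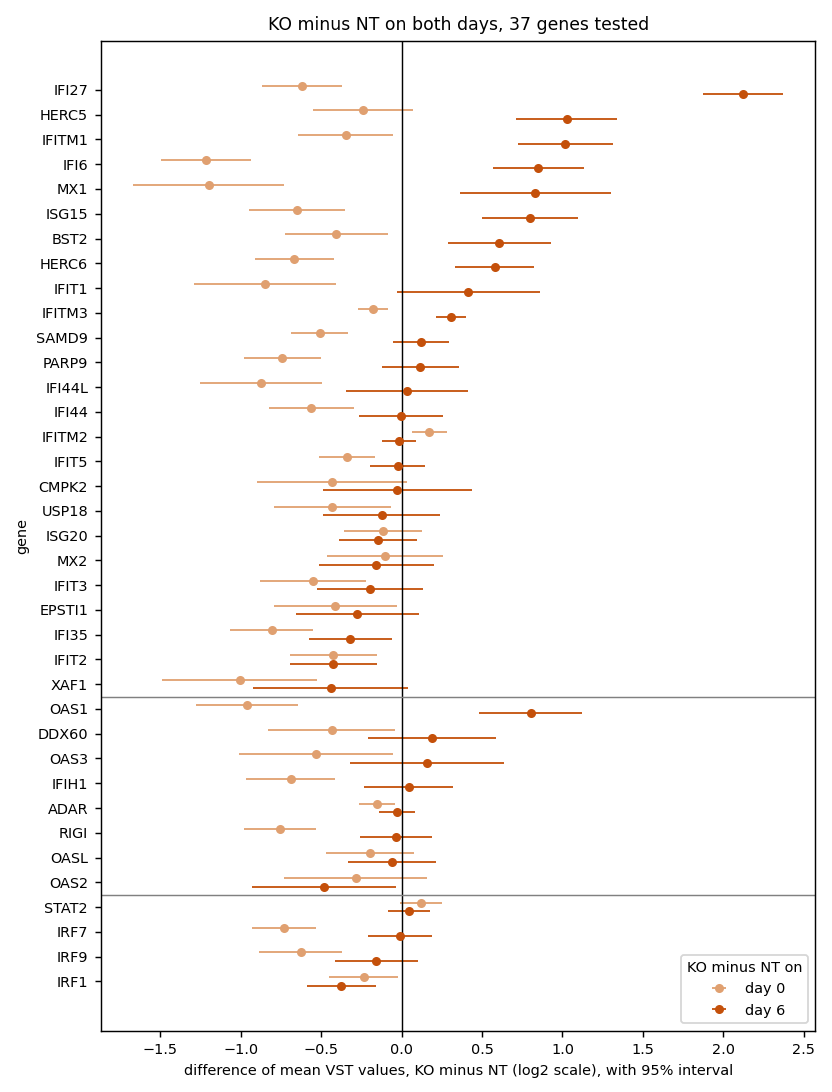
Difference of mean VST values, KO minus NT (log2 scale), with its 95% interval, on day 0 (light) and day 6 (dark) for the 37 genes tested, with effectors on top, sensors below the first line and factors below the second, each sorted by day 6. On day 0, 35 of the 37 points lie below 0, with IFITM2 and STAT2 above, and on day 6 the points run from -0.48 (OAS2) to 2.12 (IFI27).

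Neighbouring genes of the same family were not called alike on day 6. In the OAS cluster the day 6 differences were 0.80 for OAS1, 0.16 for OAS3 and -0.48 for OAS2. In the IFIT cluster they were 0.41 for IFIT1, -0.42 for IFIT2, -0.20 for IFIT3 and -0.024 for IFIT5, of which 1 was called. For IFITM1, IFITM2 and IFITM3 they were 1.02, -0.017 and 0.31. Differences between neighbours were not tested. The core GAAANNGAA was in the windows of 8 of the 10 genes called higher on day 6 (not HERC6 or OAS1) and of 13 of 19 not called there, and of 13 of 19 called lower and 8 of 11 not called on day 0.

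Between the days, 20 genes rose in both genotypes, and the share of all genes tested that did so was not determined. SAMD9 rose 4.80-fold in NT and 7.82-fold in KO cells, HERC6 2.76-fold and 8.12-fold, and IFIT1 2.38-fold and 6.85-fold. IFIT2, IFITM2, ISG20 and STAT2 fell in both. ISG15, BST2, IFIT3, OAS3 and IRF9 were called higher on day 6 in KO cells alone, and among these the interaction was called for ISG15 and BST2. The call of IFIT3 was lost without KO replicates 1 or 2 of either day (adjusted p up to 0.156), with no filter (0.0501) and without the trend of the variance (0.0517). HERC5 and USP18 were no longer called in NT cells without NT replicate 2 of day 0 (adjusted p = 0.0679 and 0.0915) or of day 6 (0.0551 and 0.127), or after quantile normalisation (0.153 and 0.104). IFIT5 fell in NT cells (-0.23, SE 0.080, adjusted p = 0.0189), a call lost without NT replicate 1 (0.0591) or 3 (0.06) of day 6, and IFIT2 lost its fall without NT replicate 3 (0.0692) or KO replicate 3 (0.0532) of day 0. The 2 comparisons with KO cells of day 0 share those libraries, as do those with NT cells of day 0. On day 6, 10 of 10 fibroblast markers were called lower in KO than in NT cells, and 4 of 6 pluripotency markers were called higher. Of 5 epithelial markers tested 2 were higher and 1 was lower, and of 4 endothelial markers 0 were called. The shares over all genes tested were 19.2% lower and 17.7% higher. Of the 11 leukocyte markers 2 were tested, PTPRC and CD68, and on day 6 1 was called higher and 0 lower in KO cells. PTPRC stood at 60.4 to 72.5 in KO and 18.1 to 29.2 in NT libraries of day 6. CD68 went the other way without a call, at 53.8 to 117 in KO and 102 to 125 in NT libraries. The part of any of these markers in the interferon results, on day 0 or day 6, was not tested.

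The rest of the pathway was read from wider lists in the same fit, and their counts are to be read against all genes tested. Of all genes, 10.7% were called lower and 7.42% higher on day 0 (17.2% and 13.6% at an unadjusted p under 0.05), and 19.2% lower and 17.7% higher on day 6. Of 21 interferon ligands 0 had enough reads to be tested. IFNB1 and IFNL1 were listed at 0 in all 12 libraries. Apart from IFNE, no ligand exceeded 4.62 normalised counts in any library (IFNA14, NT cells of day 6), and IFNW1 reached 2.98. IFNE, an interferon of epithelia, stood at 12.1, 13.4 and 8.29 in NT and 18.3, 35.8 and 37.8 in KO cells on day 0 and at 0.850 to 10.2 on day 6, and was not tested. Of 8 receptor subunits and kinases tested, 2 were lower and 0 higher in KO cells on day 0 (3 and 0 at an unadjusted p under 0.05), and 5 were lower and 1 higher on day 6 (25.0% called on day 0 and 75.0% on day 6). These included JAK2 (-0.33, SE 0.091, adjusted p = 0.0209 on day 0, -0.36, SE 0.091, adjusted p = 0.00649 on day 6) and the receptor subunits IFNGR2 (-0.35, SE 0.075, adjusted p = 0.00453 and -0.21, SE 0.075, adjusted p = 0.0363) and IL10RB (-0.54, SE 0.092, adjusted p = 3.29e-04 on day 6). The other members of the type I route were named for their role after their values were seen. IFNAR1 and IFNAR2 were called on neither day, while on day 6 the kinase JAK1 was lower (-0.25, SE 0.050, adjusted p = 0.00118) and TYK2 higher (0.30, SE 0.10, adjusted p = 0.0358), with an interaction called for JAK1 (-0.23, adjusted p = 0.0344) and not for TYK2 (0.41, adjusted p = 0.0605).

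Among 17 further sensors and adaptors tested, 6 were lower and 0 higher on day 0 (7 and 1 unadjusted), and 4 were lower and 1 higher on day 6, or 35.3% and 29.4% called. Of all genes tested, 10.7% were lower and 7.42% higher on day 0 (17.2% and 13.6% unadjusted), and 19.2% were lower and 17.7% higher on day 6. TLR3, the endosomal sensor of double-stranded RNA, was lower on both days (-0.69, SE 0.17, adjusted p = 0.0121 and -0.69, SE 0.17, adjusted p = 0.00601), STING1, the adaptor of DNA sensing, on day 0 (-0.50, SE 0.075, adjusted p = 3.35e-04), and IFI16, a nuclear DNA sensor, was higher on day 6 (0.44, SE 0.062, adjusted p = 6.38e-05). Of 11 negative regulators 0 were called on day 0 (3 higher and 1 lower unadjusted), and PIAS3 was lower (-0.44, SE 0.068, adjusted p = 1.49e-04) and PTPN2 higher (0.25, SE 0.084, adjusted p = 0.0323) on day 6, which is 18.2% called.

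Of 44 other interferon-induced genes tested, 17 were lower and 2 higher on day 0, and 15 were lower and 6 higher on day 6 (43.2% and 47.7% called), with medians of -0.24 and -0.14. Of all genes tested, 10.7% were lower and 7.42% higher on day 0, and 19.2% were lower and 17.7% higher on day 6. The interaction of the 44 genes was called upward in 10 and downward in 4, where 9.07% and 11.2% of all genes were. GBP1, a guanylate-binding GTPase induced strongly by interferon gamma, stood at 719, 658 and 809.9 in NT and 464, 477 and 526 in KO cells on day 0. On day 6 it stood at 417, 414 and 322 and 122, 96.9 and 87.3. Its KO libraries were the lower on both days (-0.52, SE 0.11, adjusted p = 0.00467 on day 0 and -1.51, SE 0.11, adjusted p = 9.21e-08 on day 6), as were those of APOL6 (-0.77, SE 0.11, adjusted p = 1.68e-04 and -1.15, SE 0.11, adjusted p = 1.04e-06). TRIM22, an antiviral ubiquitin ligase, was lower on day 0 (-1.17, SE 0.17, adjusted p = 2.09e-04) and not called on day 6 (0.35, SE 0.17, adjusted p = 0.11). For class I antigen presentation 8 of 10 genes were lower and 0 higher on day 0 (the same counts unadjusted), and 5 were lower and 1 higher on day 6, or 80.0% and 60.0% called. Their medians were -0.26 and -0.11, and the interaction was called upward in 4 and downward in 0 (4 and 2 unadjusted). HLA-B was lower on day 0 (-0.52, SE 0.075, adjusted p = 2.61e-04), and ERAP1, the peptidase that trims antigens, and PDIA3, of the peptide-loading complex, on both days (-0.30, SE 0.077, adjusted p = 0.0144 and -0.56, SE 0.077, adjusted p = 5.13e-05, and -0.41, SE 0.058, adjusted p = 1.95e-04 and -0.52, SE 0.058, adjusted p = 6.69e-06). PDIA3 is encoded on chromosome 15, with the medians given for ISG20.

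**Figure D5:**
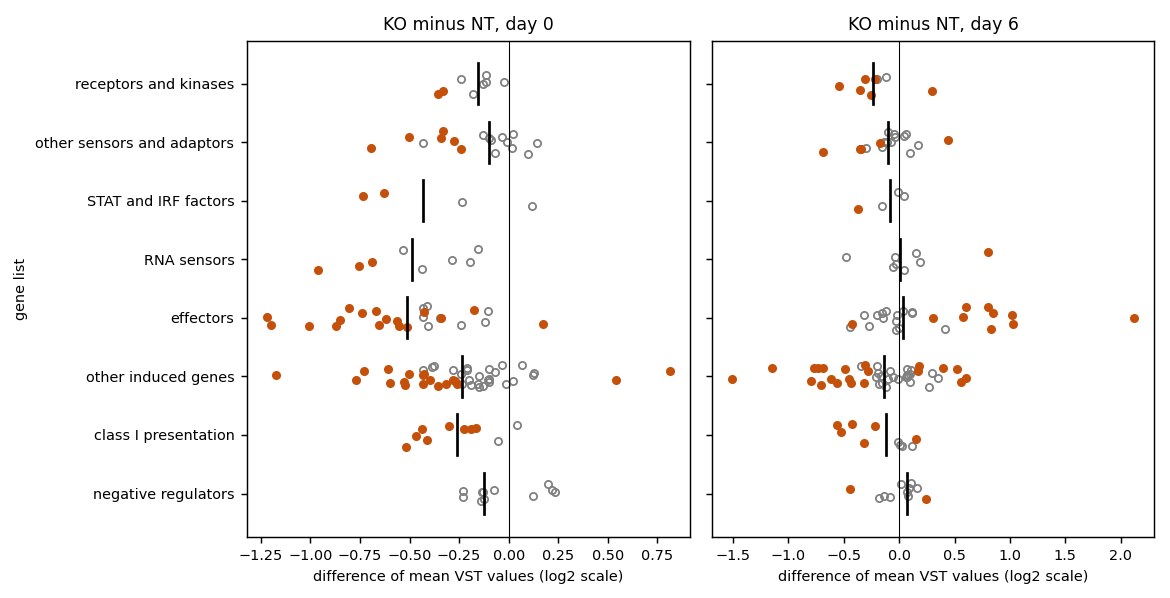
Difference of mean VST values, KO minus NT (log2 scale), on day 0 (left) and day 6 (right) for each gene tested of the interferon lists (rows), with called genes filled, others open and the median of each list as a vertical bar. On day 0 the medians of all 8 lists lie below 0, and on day 6 called genes lie on both sides among the effectors and mostly on the left among other induced genes, class I presentation and receptors and kinases.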

How the data were processed

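According to the labels' protocols, a Zymo Research kit was used for RNA and TruSeq Stranded mRNA for the libraries. STAR, Salmon, DESeq2 and GRCh38 are named in the submitters' processing notes, with tool versions not given in the sources used here. As deposited by the authors, the table holds 1 value per gene and library on a log2 scale, which its title calls VST normalised counts and which was taken as the variance-stabilising transformation (VST) of DESeq2, for 60660 identifiers in 12 libraries. Its floor of 4.85 stands for 0 reads.

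Normalised counts were estimated by inverting the VST in its parametric form, which was assumed, and levels, folds and depths rest on that. Of the estimates up to 6 counts, 68.0 to 72.7% per library came within 0.1 of whole reads, so no count model was run. Genes with a mean VST at least 1 above the floor (14.4 normalised counts) were tested with limma 3.58.1 in R 4.3.3, with a variance trend, all 4 groups in 1 fit and 5 comparisons. The fit was tested on simulated data. Tables were made with Python 3.11.15 and pandas 2.3.3.

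Symbols came from a table of gene names (60463 of 60660 identifiers matched), positions from GENCODE release 29 on GRCh38, and promoter windows from RefSeq on GRCh38.p14. The 38 genes and all lists were chosen with earlier results of these data known. Values of every library are given for 15 genes set by role and for any other with the highest or lowest called difference of its class. From each wider list the 3 called genes with the largest differences between KO and NT were named, and from the ligands, with none called, those with the highest means, IFNE and IFNW1. A few items were chosen after their values were seen. These are library values of XAF1, BST2, OAS2, UBA7, UBE2L6, IFNE, PTPRC and CD68, and mentions of IFNA14, IFNB1, IFNL1 and single fibroblast markers. Alternatives were other filters, scalings, pseudocounts of 1 and 10 on log2 estimated counts, variance models, samples in the fit, the replicate block and each library left out in turn. Some items are not reported here.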

Additional observations from a re-analysis of the deposited data

Results flagged for a closer look

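For 18 of the 37 interferon genes the KO effect on day 6 differed from the KO effect on day 0 in a test of the difference itself. In each it was the higher on day 6, where 9.07% of all genes tested were called upward and 11.2% downward. The differences between the effects, in VST units, were IFI27 (2.74), IFI6 (2.07), MX1 (2.03), OAS1 (1.76), ISG15 (1.45), IFITM1 (1.36), HERC5 (1.27), IFIT1 (1.26), HERC6 (1.25). They were BST2 (1.01), IFI44L (0.91), PARP9 (0.86), IFIH1 (0.73), RIGI (0.72), IRF7 (0.72), SAMD9 (0.63), IFI44 (0.56) and IFITM3 (0.48) for the others. The adjusted p over 14858 genes ran from 4.93e-08 (IFI27) to 0.0351 (IFI44).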

How the results depend on the processing

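The totals of called genes, over all genes and over the interferon genes, stayed within 1.5 times their reported values under every alternative run. Counts in 1 direction moved further in places. The 2 interferon genes lower on day 6 became 4 or 1 without a KO library of day 6, the 1 higher on day 0 became 0 under 7 alternatives, the 0 downward interactions became 1 under 3, and upward interactions over all genes fell from 1348 to 877 with no filter. With 1 library left out, the interferon genes called numbered 19 to 26 on day 0, 11 to 14 on day 6, 25 to 28 and 30 to 31 between the days in NT and KO cells, and 16 to 21 for the interaction. All genes called then numbered 1924 to 2691, 4520 to 5643, 9349 to 9931, 10474 to 11039 and 2425 to 3051. Same-numbered libraries of different groups had residual correlations of -0.039 to 0.063 over all genes tested. That does not settle whether they share an origin, which the labels do not give. Of the 37 interferon genes, replicate 2 was the lowest of its group for 29 (NT) and 25 (KO) on day 0. Replicate 3 was the highest there for 23 in each genotype. On day 6 replicate 2 was the highest for 32 (NT) and 24 (KO). The lowest on day 6 was most often replicate 3 in NT (26) and replicate 1 in KO cells (18). That is 48.65% for KO replicate 1, against 33.73% of all genes tested. Shares of all genes for the highest library were not determined. With the replicate number as a block, 23 interferon genes were called on day 0 and 20 for the interaction, with DDX60 added to both and IFITM2 to the latter, and no other call of an interferon gene changed. For single genes, 3908 results stayed called in the same direction or stayed uncalled, 49 lost a call and 45 gained one. Results uncalled in both fits were counted as unchanged whatever their direction. The 1 other result was IFITM3 between the days in KO cells, which quantile normalisation turned from -0.087 to 0.13 (adjusted p = 0.0231), and the cause was not tested. Leaving out 1 library also called IFIT3 for the interaction (without NT replicate 2 of day 0, adjusted p = 0.0387) and OAS3 between the days in NT cells (without NT replicate 1 of day 0, 0.0103). IFI35 was called between the days in NT cells without any of 3 libraries (0.0115 to 0.0469) and for the interaction without KO replicate 3 of day 6 (0.0401) or NT replicate 2 of day 0 (0.0211). With 3 libraries a group, differences near the spread between libraries can go uncalled.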
